A study of Mus musculus with 6 samples.

Results

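Lysosome and V-ATPase genes were examined in adult Ts1Cje neurospheres. The set held 43 genes, chosen by name: 30 lysosomal genes (cathepsins and other hydrolases, their cofactors, membrane proteins and the transcription factor Tfeb) and 13 genes for subunits of the V-ATPase or its accessory proteins. A total of 41 of the 43 had a probe set that the platform annotation assigns to that gene alone, out of 18193 genes named in this way on the array. Cd63 and Atp6v0c had none in the annotation used here. The 41 genes were covered by 99 probe sets, of which 69 were expressed, meaning that their average log2 intensity over all 6 arrays (A) was above 5. By the brightest probe set of each gene, 39 members were expressed, compared with 8947 genes on the whole array.

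Neural stem and progenitor cells came from the lateral ventricle walls of 84 day old female mice and were grown as floating colonies for 7 days. An extra copy of part of chromosome 16 distinguishes the Ts1Cje group (3 arrays) from its disomic littermates, labelled C57BL/6 (3 arrays), and Ts1Cje mice model Down syndrome. The extra segment begins beyond an inactivated Sod1, and the line is also known to lack a small segment of distal chromosome 12. The labels call the arrays of a genotype biological replicates, and all cultures were grown under the same conditions with no further treatment. The extra segment is present in every cell of the animal, so that the model is not specific to a cell type, and each array measured a mixed culture. None of the members lies in the trisomic segment, and Atp6v1a is the only member on chromosome 16. As a check of the genotypes, 43 of 44 expressed trisomic genes had a log2 difference of Ts1Cje over disomic (M) above 0, with a median M of 0.53.

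Lysosomes are acidic organelles that break down proteins, lipids, glycans and material delivered by autophagy and endocytosis. The V-ATPase pumps protons into them: its V1 sector in the cytosol hydrolyses ATP and turns a rotor, and its V0 sector in the membrane carries the protons. Many of the genes for both share an E-box motif in their promoters, through which the transcription factor Tfeb and its relatives can raise them together when lysosomal demand grows. In neural stem cells of the adult ventricular wall, lysosomes are known for clearing protein aggregates during quiescence.

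The promoter motif is shown first because it is a feature of a minority of the members that their choice by name did not use. It is already known from this class of genes, so a higher share among the members is no independent result. CACGTG is the E-box core and reads the same on both strands. TCACGTGA, the same core with T before and A after, is the centre of the longer site bound by Tfeb, so that every match to the longer motif is also a match to the shorter. In RefSeq promoter windows (GRCm38.p6) from 250 bases before to 50 bases after the gene start, 36 of the 43 members had an entry. The core was present in 12 of these 36 (33.3%), compared with 8.09% of all 27025 genes with a window and 7.15% of all 32851 windows. The longer motif was present in 6 of 36 members (16.7%), compared with 1.12% of all genes and 0.974% of all windows. These are shares of sequence matches and do not show that any factor was bound. Parts of 5 windows are given below, 5′ to 3′ in the direction of transcription and ending at the base before the gene start, with each CACGTG in capitals. They were chosen to show a membrane protein with 4 cores (Lamp1), a calcium channel and a protease with the longer motif (Mcoln1, Ctsd), a proton channel subunit with 2 cores (Atp6v0b) and the catalytic subunit of the pump (Atp6v1a).
Lamp1 (chr8:13159051-13159160, plus strand): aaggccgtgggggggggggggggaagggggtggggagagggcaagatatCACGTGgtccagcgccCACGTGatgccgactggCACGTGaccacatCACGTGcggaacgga
Mcoln1 (chr8:3500409-3500518, plus strand): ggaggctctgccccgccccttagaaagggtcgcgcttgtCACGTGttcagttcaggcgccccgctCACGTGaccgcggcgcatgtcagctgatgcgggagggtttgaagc
Ctsd (chr7:142387828-142387957, minus strand): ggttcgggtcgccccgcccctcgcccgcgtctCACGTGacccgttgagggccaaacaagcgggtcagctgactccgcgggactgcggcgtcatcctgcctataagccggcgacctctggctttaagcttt
Atp6v0b (chr4:117887330-117887439, minus strand): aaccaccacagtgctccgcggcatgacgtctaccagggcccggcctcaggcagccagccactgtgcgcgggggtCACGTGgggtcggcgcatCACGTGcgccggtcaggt
Atp6v1a (chr16:44139260-44139409, minus strand): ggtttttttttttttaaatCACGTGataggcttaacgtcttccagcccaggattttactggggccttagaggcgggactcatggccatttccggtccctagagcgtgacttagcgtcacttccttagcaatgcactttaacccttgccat

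The lysosomal members with a core were Ctsa, Ctsd, Ctsf, Ctsl, Gaa, Gla, Glb1, Lamp1 and Mcoln1, which is 9 of 26 with a window. The V-ATPase members with a core were Atp6v0b, Atp6v0d1 and Atp6v1a, or 3 of 10. The longer motif was found in Ctsa, Ctsd, Gla, Mcoln1, Atp6v0d1 and Atp6v1a. Counted from the gene start, with -1 as the base before it, the cores of Lamp1 began at -61, -45, -28 and -15, and those of Mcoln1 at -71 and -45. Ctsd had a further core at -245, outside the stretch printed above.

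**Figure D1:**
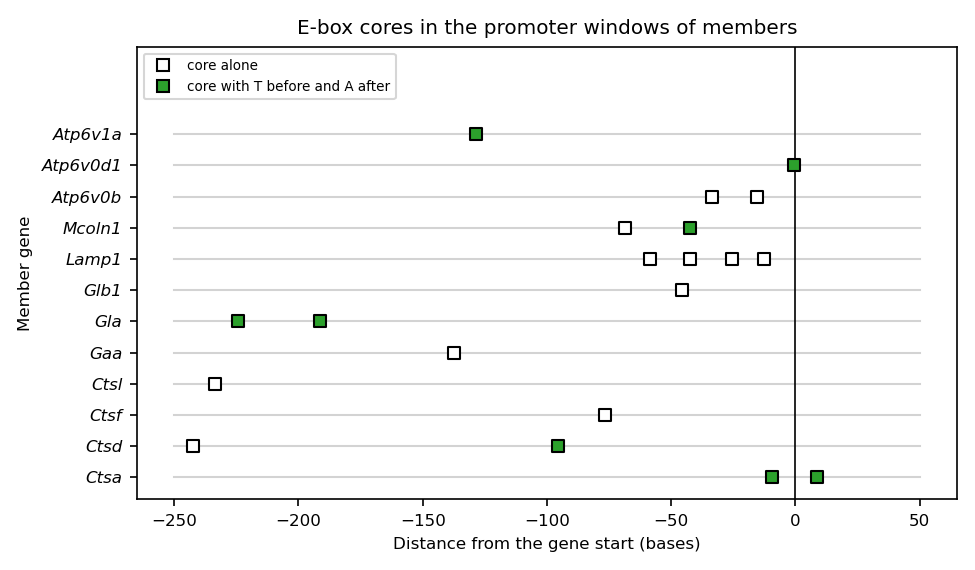
E-box cores in the promoter windows of the 12 members that hold one. The x axis is the distance from the gene start in bases, each grey line is one window, open squares mark the core alone and green squares the core with T before and A after, and 6 of the 12 genes carry at least 1 green square.

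The promoters of Lamp2 and Tpp1, whose probe sets had the largest moderated t among the members in the comparison that follows, did not hold these letters in the window.
Lamp2 (chrX:38456461-38456570, minus strand): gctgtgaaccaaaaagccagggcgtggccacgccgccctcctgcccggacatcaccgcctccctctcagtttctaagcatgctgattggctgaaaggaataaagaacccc
Tpp1 (chr7:105752236-105752345, minus strand): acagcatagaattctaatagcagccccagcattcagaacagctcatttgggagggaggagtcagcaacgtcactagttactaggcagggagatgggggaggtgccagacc

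The genotype difference was compared between members with and without the core as a description. The 12 with a core had a median M of 0.15, with 10 above 0, and the 20 expressed members with a window and no core had a median M of 0.12, with 14 above 0. Tfeb itself was not expressed on these arrays (A = 4.34), and its M was 0.02 (SE 0.07).

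The question of the comparison was whether lysosome and V-ATPase genes differed in expression between Ts1Cje and disomic neurospheres. By the median M they were slightly higher in Ts1Cje, but the array means of the 2 genotypes overlapped, and no member passed the adjusted p. The median M over the 39 expressed members was 0.10, or 1.07-fold, compared with a median M of 0.02 over all expressed genes. M was above 0 for 29 of 39 members, where 53.9% of all expressed genes had M above 0. Among expressed genes with A above 9, that share was 52.1%. The count of members above 0 ran from 22 without disomic array 3 to 36 without disomic array 1. Members varied together from array to array, so they are not independent observations of the genotype. In bulk cultures, a difference in the number of cells of a type and a difference in RNA per cell cannot be told apart.

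Few members differed by more than the spread between arrays. By limma with Benjamini-Hochberg adjustment over all probe sets, 0 of 39 members passed an adjusted p of 0.05, as against 0.0112% of expressed genes (1 gene) and 0.00222% of all probe sets. At an unadjusted p under 0.05 in the same fit, 2 members (Lipa and Lamp2) were higher in Ts1Cje and 0 were lower, where 3.73% and 2.87% of expressed genes did so. A moderated t above 4, the cut-off of the study, was reached by 1 member (Lamp2) against 1.13% of expressed genes, and a moderated t below -4 by 0 against 0.693%. All 3 Ts1Cje arrays lay above all 3 disomic arrays for 4 members (Lipa, Lamp2, Atp6v0a1 and Atp6v1f) against 6.12% of expressed genes, and all 3 lay below for 0 members against 5.16%.

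The intervals bounded the size of the differences for most members. The 95% confidence interval of M lay within 1.5-fold in either direction for 23 of 39 members, compared with 47.5% of all expressed genes. The members were brighter, with a median A of 11.03 against 8.47 for all expressed genes. Of the 3600 expressed genes with A above 9, 2115 had such an interval, a share close to that of the members. The SE of M ranged from 0.05 for Lamp2 to 0.74 for Ctss, with a median of 0.14. For the other 16 members the interval reached past 1.5-fold.

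**Figure D2:**
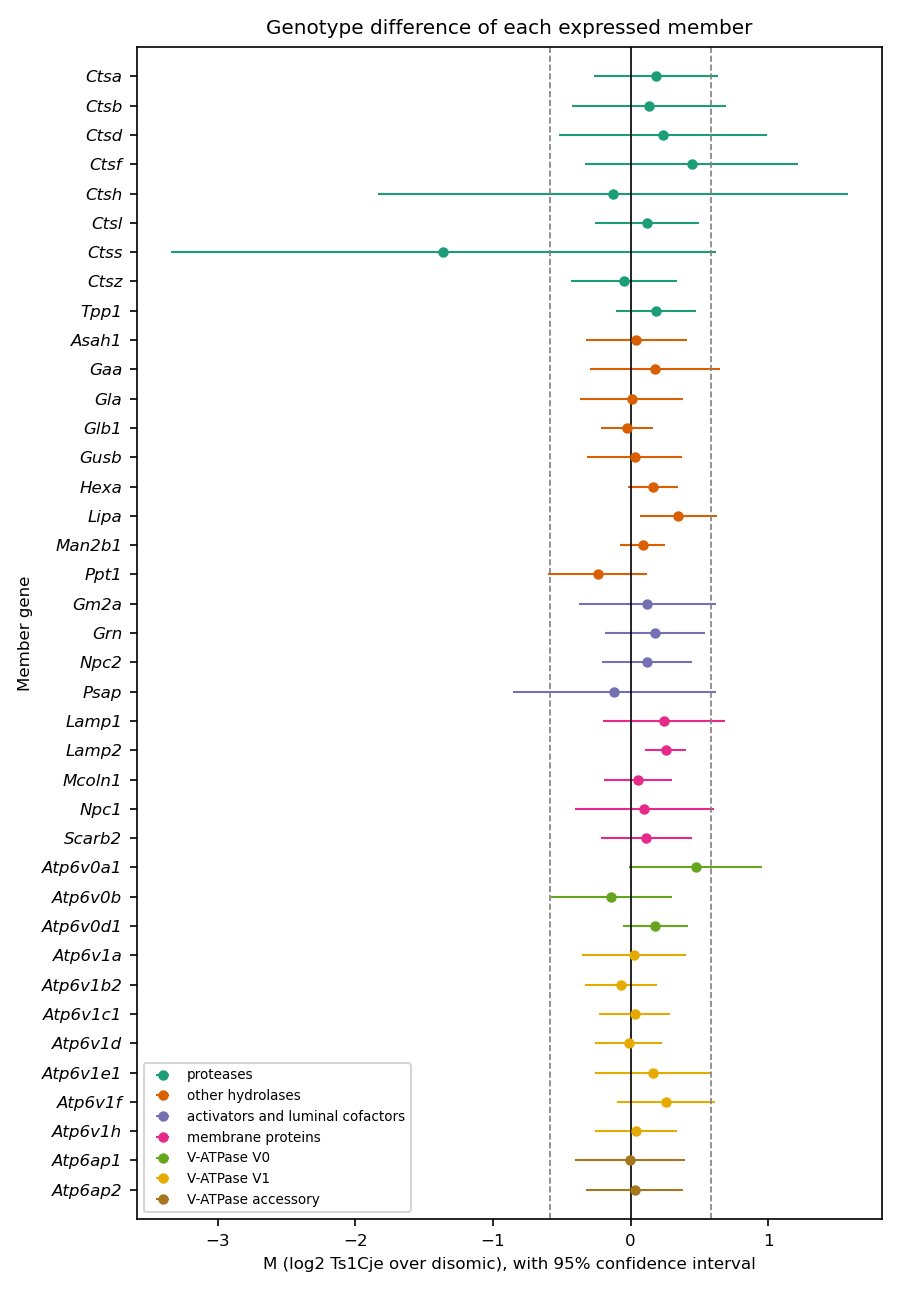
M of each expressed member (log2 Ts1Cje over disomic, x axis) with its 95% confidence interval from limma, coloured by role. Dashed lines mark 1.5-fold in either direction; 29 of 39 points lie right of 0 and 23 intervals stay between the dashed lines.

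The membrane proteins were all on the same side. M was above 0 for 5 of 5 expressed members, with a median of 0.11. Lamp2, a heavily glycosylated protein of the lysosomal membrane that takes part in chaperone-mediated autophagy, had log2 intensities of 12.82, 12.96 and 12.88 on disomic arrays 1 to 3 and of 13.07, 13.20 and 13.16 on Ts1Cje arrays 1 to 3. The lowest Ts1Cje array was thus above the highest disomic array. The M was 0.25 (SE 0.05, 95% confidence interval 0.11 to 0.40), or 1.19-fold, with a moderated t of 4.68, an unadjusted p of 0.0078 and an adjusted p of 1 in limma. The moderated t was 3.90 without disomic array 1, 3.61 without disomic array 3, 3.77 without Ts1Cje array 2 and 3.58 without Ts1Cje array 3. Lamp2 had 3 other expressed probe sets, and their M was 0.11, 0.01 and -0.12, so that only the brightest separated the genotypes. With the mean of its 4 expressed probe sets the M of Lamp2 was 0.06. Lamp2 transcripts end in alternative last exons, and which of them each probe set reads was not analysed here.

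Lamp1, a related glycoprotein of that membrane, had 12.32, 12.03 and 12.33 on the disomic arrays and 12.19, 12.62 and 12.60 on the Ts1Cje arrays. Here Ts1Cje array 1 lay among the disomic arrays, and M was 0.24 (SE 0.16). The remaining membrane proteins were Scarb2, the receptor that delivers glucocerebrosidase (M = 0.11, SE 0.12), the cholesterol exporter Npc1 (M = 0.10, SE 0.19) and the calcium channel Mcoln1 (M = 0.05, SE 0.09). In each of these 3 the groups overlapped.

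The proteases spread most widely. M was above 0 for 6 of 9, with a median of 0.14, and none separated the genotypes by its brightest probe set. Ctsf, a cysteine protease, had the largest positive M of the proteases by brightest probe set (0.44, SE 0.29). Its values were 7.58, 7.15 and 7.40 on the disomic arrays and 7.31, 7.92 and 8.24 on the Ts1Cje arrays, with Ts1Cje array 1 between disomic arrays 2 and 3. Ctsd, the main aspartic protease of the lysosome, also had Ts1Cje array 1 at the low end, with 11.49, 10.94 and 11.01 against 10.92, 11.67 and 11.56, and its M was 0.23 (SE 0.28). The M of Ctsa, which protects other hydrolases, was 0.18 (SE 0.17), that of Ctsb was 0.14 (SE 0.21), that of Ctsl was 0.12 (SE 0.14) and that of Ctsz was -0.05 (SE 0.14).

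Tpp1, the tripeptidyl peptidase lost in a childhood neuronal ceroid lipofuscinosis, gave different pictures on its 2 probe sets. The brighter had 9.65, 9.43 and 9.50 on the disomic arrays and 9.59, 9.65 and 9.89 on the Ts1Cje arrays, an overlap, with M = 0.18 (SE 0.11). The dimmer, singled out after its values were seen, had 8.63, 8.81 and 8.85 against 9.14, 9.29 and 9.31. All of the Ts1Cje arrays were above all of the disomic arrays on it. Its M was 0.48 (SE 0.08, 95% confidence interval 0.25 to 0.71), or 1.39-fold, with a moderated t of 5.65. That t ranged from 4.36 to 6.25 when each array was left out in turn. The probe set was picked from these same arrays, with the largest moderated t of any expressed member probe set. The range therefore cannot serve as a separate test of it. This probe set did not pass the adjusted p in limma.

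Ctss, a cysteine protease that is abundant in microglia, had the M furthest from 0 of any expressed member and the widest spread. Its A of 5.03 was only just above the level for expressed, and it passed through the disomic arrays, whose mean was 5.71 where that of the Ts1Cje arrays was 4.35. It had 6.03, 6.54 and 4.57 on the disomic arrays and 4.20, 5.26 and 3.59 on the Ts1Cje arrays. Disomic arrays 1 and 2 were above all the others, and disomic array 3 lay between Ts1Cje arrays 1 and 2. M was -1.36 (SE 0.74, 95% confidence interval -3.34 to 0.62), which did not pass either threshold. Of the 17 microglial and macrophage markers with a probe set, Ctss was the only one with A above 5. Laptm5, a lysosomal protein of immune cells named after its values were seen, had 4.28, 4.70 and 2.64 on the disomic arrays and 2.75, 3.16 and 2.64 on the Ts1Cje arrays, with disomic arrays 1 and 2 again the highest. The defining markers Aif1, Itgam, P2ry12, Tmem119 and Tyrobp were at the floor of 2.23 on every array. The log2 of the summed intensities of the 16 markers other than Ctss was 6.31 to 6.64 on the disomic arrays and 6.31 to 6.39 on the Ts1Cje arrays. None of the 16 had A above 5, so this sum is mostly floor signal. It cannot show whether the amount of such cells differed. The part of such cells in the result for Ctss was not tested. Ctsh, a cathepsin that works as an aminopeptidase, varied widely too, with 7.14, 5.97 and 5.12 on the disomic arrays, 6.02, 5.38 and 6.44 on the Ts1Cje arrays and M = -0.13 (SE 0.63).

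**Figure D3:**
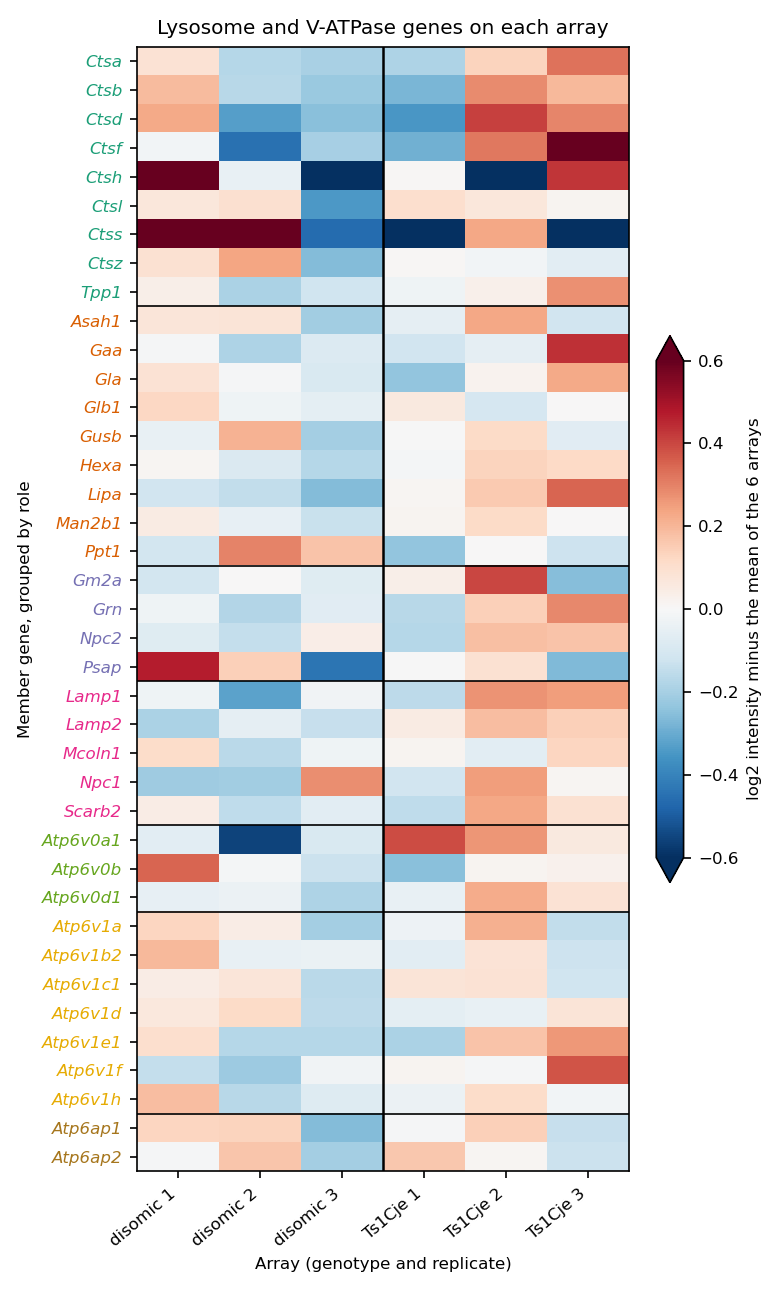
Log2 intensity of each expressed member on each array minus its mean over the 6 arrays (colour scale, from blue below to red above, with values past 0.6 in either direction drawn in the end colours). Rows are members grouped by role, columns are arrays, and the black vertical line separates genotypes. Disomic array 1 is the highest of its genotype in 22 of 39 rows and Ts1Cje array 1 the lowest of its genotype in 21.

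Other hydrolases showed 7 of 9 expressed members above 0, with a small median M of 0.04. Lipa, the acid lipase that frees cholesterol and fatty acids from lipoproteins, had 5.96, 5.93 and 5.81 on the disomic arrays and 6.08, 6.23 and 6.42 on the Ts1Cje arrays. The genotypes did not overlap, and M was 0.35 (SE 0.10, 95% confidence interval 0.07 to 0.63), or 1.27-fold, with a moderated t of 3.32, an unadjusted p of 0.026 and an adjusted p of 1 in limma. Hexa, a subunit of the enzyme that degrades GM2 ganglioside, had 11.36, 11.26 and 11.17 against 11.33, 11.48 and 11.47. Only Ts1Cje array 1 reached into the disomic range, and M was 0.16 (SE 0.07). Ppt1, which removes palmitate from proteins, had the lowest M among these enzymes, with 8.45, 8.86 and 8.73 against 8.32, 8.56 and 8.44, and M was -0.24 (SE 0.13). Disomic array 1 lay among the Ts1Cje arrays.

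The interval of M included 0 for Hexa (-0.02 to 0.35) and Ppt1 (-0.60 to 0.12), as it did for the remaining hydrolases. The M of Gaa, which degrades glycogen, was 0.18 (SE 0.18) on its brightest probe set and 0.38 (SE 0.25) on the other expressed one, and without Ts1Cje array 3 the first was 0.01. The glucuronidase Gusb had M = 0.03 (SE 0.13) on its brightest probe set and -0.37 (SE 0.32) on the other. The M of the mannosidase Man2b1 was 0.09 (SE 0.06), that of the acid ceramidase Asah1 was 0.04 (SE 0.14), that of Gla was 0.01 (SE 0.14) and that of the galactosidase Glb1 was -0.03 (SE 0.07). The sialidase Neu1 was not expressed on these arrays (A = 3.87).

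The activators and luminal cofactors had 3 of 4 members above 0, with a median M of 0.12. Grn, the secreted precursor of granulins that lysosomes process, had M = 0.18 (SE 0.14) on its brightest probe set, with 12.20, 12.04 and 12.15 on the disomic arrays and 12.06, 12.37 and 12.51 on the Ts1Cje arrays. A dimmer Grn probe set with A of 9.57 had 9.52, 9.42 and 9.47 against 9.59, 9.68 and 9.76, without overlap, and M was 0.21 (SE 0.05). Ts1Cje array 1 was within the disomic range on the first of these and above it on the second. On the remaining expressed Grn probe set, with A of 9.55, the groups overlapped and M was 0.11 (SE 0.17). There Ts1Cje array 1 was the lowest of all arrays, at 9.33. On their brightest probe sets the cholesterol-binding Npc2 had M = 0.12 (SE 0.12), Gm2a, the GM2 activator, 0.12 (SE 0.19), and Psap, the precursor of the saposins, -0.12 (SE 0.27). Another Npc2 probe set, with A of 11.69, also had M = 0.12 (SE 0.13), and the groups overlapped on it. A dimmer Npc2 probe set with A of 6.31 had M = 0.46 (SE 0.23). The groups did not overlap on it, though disomic array 2 and Ts1Cje array 3 nearly met.

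The 12 expressed V-ATPase members had a median M of 0.03, with 8 above 0, and the 27 expressed lysosomal members a median M of 0.12, with 21 above 0. The order of these 2 groups was not tested and depended on the summary. By the mean of M it was the other way, at 0.08 for the V-ATPase and 0.05 for the lysosomal members. That reversal rested on Ctss alone (M = -1.36, SE 0.74), whose A of 5.03 was only just above the level for expressed. Without Ts1Cje array 3 the medians were 0.08 for both. The interval of M lay within 1.5-fold in either direction for 9 of 12 V-ATPase members. It did so for 47.5% of all expressed genes and for 2115 of the 3600 with A above 9. The median of the V-ATPase members was -0.05 without disomic array 3 and -0.00 without Ts1Cje array 2, so its sign rested on single arrays. The lysosomal median stayed between 0.06 (without Ts1Cje array 2) and 0.18 (without Ts1Cje array 1) with each array left out in turn.

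In the V0 sector, 2 of 3 expressed subunits had M above 0. Atp6v0a1, the large membrane subunit that is common in neurons, had 7.35, 6.86 and 7.33 on the disomic arrays and 7.81, 7.68 and 7.48 on the Ts1Cje arrays. The genotypes did not overlap, disomic array 2 was the lowest, and M was 0.47 (SE 0.18, 95% confidence interval -0.01 to 0.96), the largest positive M of any member by brightest probe set. Without disomic array 2 the M was 0.31. Atp6v0d1, which links the membrane ring to the central stalk, had M = 0.18 (SE 0.09), and the proteolipid Atp6v0b had M = -0.14 (SE 0.16).

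In the V1 sector, 5 of 7 subunits had M above 0, with a median of 0.03. Atp6v1f, a part of the rotor, had 9.44, 9.37 and 9.57 on the disomic arrays and 9.60, 9.58 and 9.97 on the Ts1Cje arrays. The groups did not overlap, though disomic array 3 and Ts1Cje array 2 nearly met, and M was 0.26 (SE 0.13). Without Ts1Cje array 3 the M was 0.13. The catalytic Atp6v1a had M = 0.02 (SE 0.14), with 11.57, 11.49 and 11.24 against 11.41, 11.66 and 11.29. The M of Atp6v1e1, in the outer stalk, was 0.16 (SE 0.16). The other V1 subunits had M between -0.07 (Atp6v1b2) and 0.04 (Atp6v1h). The accessory proteins Atp6ap1 and Atp6ap2, which help assemble the pump, had M of -0.00 (SE 0.15) and 0.03 (SE 0.13).

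Probe sets of the same gene did not always give the same sign. Of the 20 members with more than 1 expressed probe set, 13 had the same sign of M on all of them and 7 did not (Ctsb, Ctsz, Gusb, Gm2a, Psap, Lamp2 and Atp6v1a). The median range of M within a gene was 0.14, which is larger than the median M of the members. Over the 69 expressed member probe sets, the median M was 0.05 and 47 were above 0, where 52.3% of expressed probe sets with 1 symbol were. At an unadjusted p under 0.05 in limma, 4 of them (of Lamp2, Tpp1, Lipa and Grn) were higher in Ts1Cje against 3.46% of expressed probe sets, and 0 were lower against 2.8%. A moderated t above 4 was reached by 2 (of Lamp2 and Tpp1) against 1.01% of expressed probe sets, and a moderated t below -4 by 0 against 0.746%. The Ts1Cje arrays were all above the disomic arrays on 7 of the 69 against 5.82%, and all below on 0 against 5.14%.

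**Figure D4:**
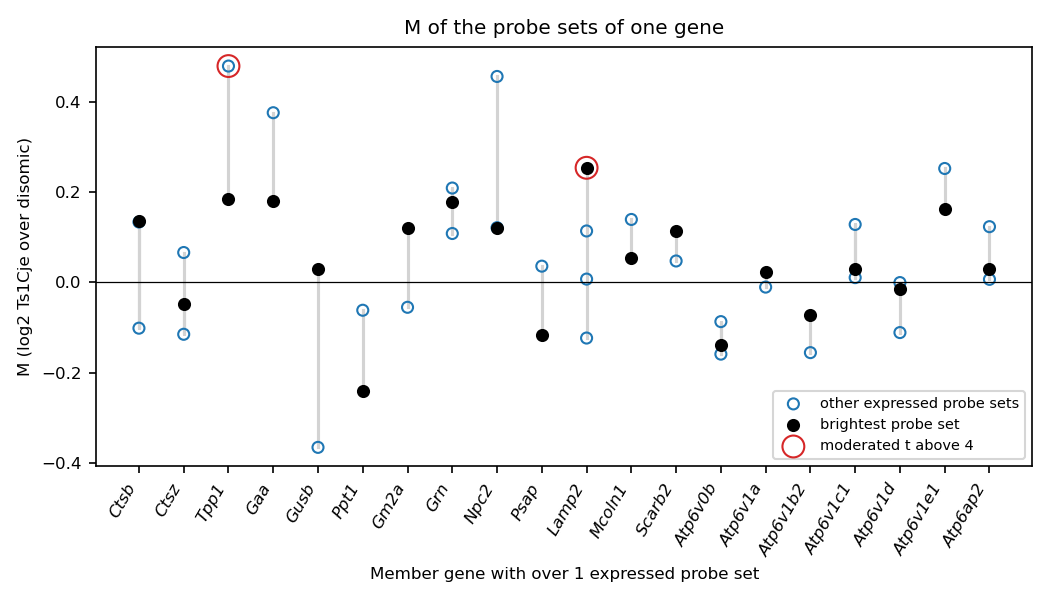
M (log2 Ts1Cje over disomic, y axis) of every expressed probe set of the 20 members with more than 1, the brightest in black and the others as open blue circles, with a red ring around a moderated t above 4. The 2 ringed probe sets are the brightest of Lamp2 and the dimmer of Tpp1, and grey bars span the probe sets of a gene.

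Members varied together from array to array within each genotype. Disomic array 1 was the highest disomic array for 22 of 39 members, against 35.5% of all expressed genes, and disomic array 3 the lowest for 22, against 37.3%. Ts1Cje array 1 was the lowest Ts1Cje array for 21 of 39, against 35.3%, and Ts1Cje array 2 the highest for 21, against 27.3%. The mean deviation of the members from their own means was 0.10, -0.03 and -0.16 on disomic arrays 1 to 3 and -0.08, 0.11 and 0.06 on Ts1Cje arrays 1 to 3. The arrays of the 2 genotypes therefore overlapped, and the range within the disomic group exceeded the difference between the genotype means.

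The proteases had the widest such range, from -0.33 to 0.31 within the disomic group. After the genotype means were taken out, the mean correlation between pairs of members over the 6 arrays was 0.25, that between pairs of proteases was 0.40, and that between pairs of all expressed genes was 0.0043. These correlations describe 6 arrays whose RNA, amplification and scan are shared by all genes. Normalization between arrays tends to hold the value over all genes near 0, so it is no scale for a list of related genes.

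**Figure D5:**
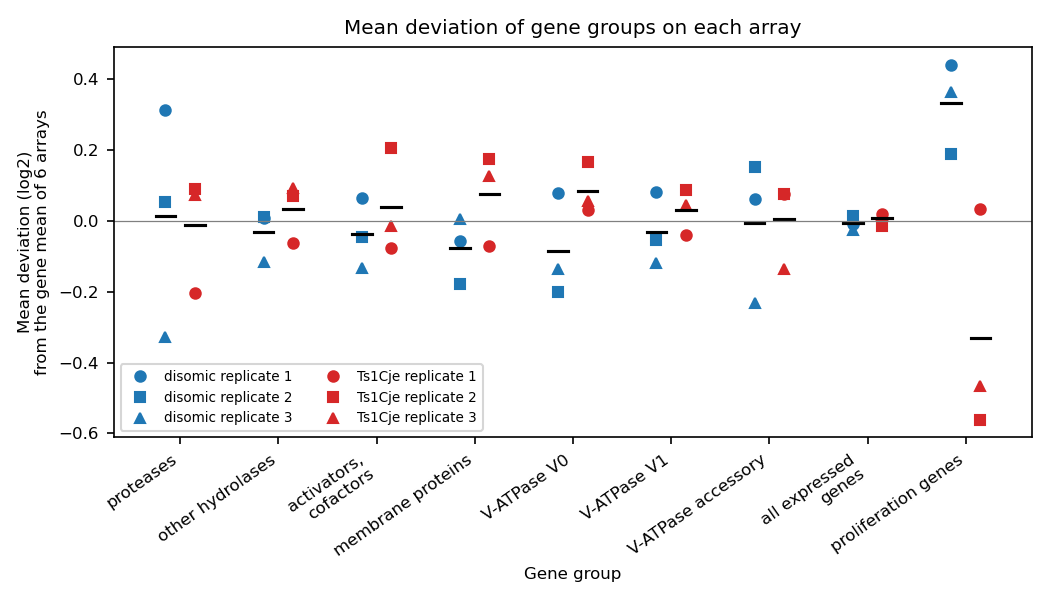
Mean deviation (log2, y axis) of the expressed members of each role from their own 6-array means, 1 point per array with the replicate as its shape (disomic in blue, Ts1Cje in red) and a black bar for the mean of each genotype. All expressed genes and 13 proliferation genes stand at the right for comparison; the genotypes overlap for every role, and do not overlap for the proliferation genes.

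Other measures moved with genotype on the same arrays. The 13 expressed genes of a proliferation list had a median M of -0.64, and their mean deviation was 0.44, 0.19 and 0.36 on the disomic arrays and 0.03, -0.56 and -0.47 on the Ts1Cje arrays. Ts1Cje array 1, the lowest of its genotype for most members, was the highest of its genotype for that list. The difference between 3′ and 5′ control probes of actin, a sign of RNA length after amplification, was 1.67 ± 0.15 (SD, n = 3) on the log2 scale for the disomic arrays and 2.02 ± 0.21 (SD, n = 3) for the Ts1Cje arrays. For Gapdh it was 2.18 ± 0.10 (SD, n = 3) and 2.34 ± 0.09 (SD, n = 3). The 18S rRNA control probes averaged 11.10 ± 0.78 (SD, n = 3) and 12.22 ± 0.22 (SD, n = 3). The genotypes did not overlap on any of these 3 controls. The part of proliferation and RNA quality in the members' values was not tested. Of 14 neural stem cell and astrocyte markers 13 were expressed, and 0 of 8 ependymal and 0 of 8 vascular markers were. The stem cell and astrocyte markers had a median M of 0.11, with 10 of 13 above 0 and Aqp4, a water channel of astrocytes, the furthest from 0 (M = 0.81, SE 0.23). Their mean deviation was -0.14, -0.15 and 0.05 on the disomic arrays and -0.03, 0.16 and 0.12 on the Ts1Cje arrays, so that the genotypes overlapped. M was below 0 for 5 of 5 expressed oligodendrocyte lineage markers (median -0.07), 2 of 2 transit-amplifying markers (median -0.22) and 2 of 2 neuroblast and neuron markers (median -0.09). The markers with a probe set numbered 7, 4 and 8 in these lists. Of the transit-amplifying markers, Mki67 (M = -0.41) is also in the proliferation list, and the other had M = -0.03. The mean deviations of the genotypes overlapped in each of these lists. The part of these cell types in the members' values was not tested.

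Other lysosomal genes were listed by function. Of 20 expressed further hydrolases, 15 had M above 0, with a median of 0.12 and 0 past a moderated t of 4 in either direction. The one with the largest moderated t was Arsb, an arylsulfatase, with 7.96, 8.01 and 7.98 on the disomic arrays and 8.04, 8.23 and 8.34 on the Ts1Cje arrays without overlap (M = 0.22, SE 0.08). Of 15 further membrane proteins 7 had M above 0, with a median of -0.00, and the largest moderated t was that of the phosphatase Pip4p1 (M = -0.19, SE 0.08). The largest M of that list, and larger than any positive M of a member, was that of the transporter Abca2, named after its values were seen. It had 5.10, 4.41 and 5.30 on the disomic arrays and 4.99, 6.15 and 6.10 on the Ts1Cje arrays, with Ts1Cje array 1 inside the disomic range (M = 0.81, SE 0.45). Abca2 was near the level for expressed. Its disomic mean was below an A of 5, so that it passed only through the Ts1Cje arrays. Of 11 further V-ATPase subunits and assembly factors 7 had M above 0, with a median of 0.05. Among them Atp6v0e, a small V0 subunit, had 10.23, 10.17 and 10.21 against 10.36, 10.44 and 10.74 with no overlap (M = 0.31, SE 0.11).

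The sorting machinery that delivers hydrolases had 13 of 20 expressed genes above 0 and a median M of 0.05. One of them passed a moderated t of 4 but not the adjusted p: Vps29, a subunit of the retromer that recycles sorting receptors, had 11.32, 11.34 and 11.27 against 11.51, 11.64 and 11.74. The genotypes did not overlap, and M was 0.32 (SE 0.07), or 1.25-fold. Of 18 expressed genes for relatives of Tfeb and for mTORC1 signalling at the lysosome, 12 had M above 0, with a median of 0.05. Lamtor1, the membrane anchor of the Ragulator complex, had the largest moderated t, with M = 0.34 (SE 0.13) and all Ts1Cje arrays above the disomic ones. Zkscan3, a repressor of lysosomal genes named here after its values were seen, had 10.39, 10.72 and 10.42 against 10.21, 10.26 and 10.30, all Ts1Cje arrays lying below the disomic ones (M = -0.26, SE 0.11).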

How the data were processed

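Total RNA from 6 neurosphere cultures was labelled over 2 cycles of amplification and hybridised to Affymetrix mouse genome arrays. The authors deposited log2 intensities per probe set, made with gcRMA, which corrects for probe base composition, normalizes between arrays and summarises probes. No version is given in the sources used here. Values ran from 2.23 to 15.89, and the number of arrays limits the precision.

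All 45037 probe sets besides 64 controls were fitted in limma 3.58.1 (R 4.3.3), with genotype as the only term, moderated t, two-sided p-values and Benjamini-Hochberg adjustment. Expressed meant A above 5, and a gene was read by the brightest probe set that names it alone. The platform annotation gave 34945 probe sets 1 symbol, 932 several and 9160 none. Samples were grouped by their GEO titles. Same-numbered arrays did not deviate together (correlations of -0.17, -0.03 and 0.13 across expressed probe sets), so replicate numbers were not used as pairs.

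The members and lists were chosen with earlier results of these data known, so no p-value is given over a list. Any member could be named. From each list of other lysosomal and autophagy genes the rule named up to 3 past a moderated t of 4, or else the 1 with the largest, and from the marker lists genes that define a cell type. Abca2, Zkscan3, Pik3c3, Laptm5 and the dimmer probe sets of Tpp1, Grn and Npc2 fall outside it and were named after their values were seen. The lists were 6 sets of lysosomal and autophagy genes, proliferation genes and markers of 7 cell types. The motif search and tables used Python 3.11.15 and pandas 2.3.3, and figures matplotlib 3.10.9. The steps were tested on simulated data. Other settings tried were a replicate block, each array left out in turn, cyclic loess, array weights, an intensity trend in the variance, other filters on A, the mean of all probe sets per gene and a shorter promoter window.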

Additional observations from a re-analysis of the deposited data

How the results depend on the processing

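No member passed an adjusted p of 0.05 in limma under any alternative, and the lowest adjusted p of a member was 0.657, with the mean of all probe sets per gene. The count of members with a moderated t above 4 (1, Lamp2) was 0 with the mean of all probe sets per gene. With each array left out in turn it ranged from 0 to 3: it was 0 without disomic array 1, disomic array 3, Ts1Cje array 2 or Ts1Cje array 3, and 3 (Lamp2, Lipa and Grn) without Ts1Cje array 1. With the replicate number as a block, 2 members had a moderated t above 4 (Lamp2 and Atp6v1c1) and 2 below -4 (Ctss and Ppt1), and 0 passed the adjusted p. Not every array correlated best with its own number: disomic array 2 correlated best with Ts1Cje array 1 (0.40). The cause of these differences was not tested. In the 250 bases before the start only, the share of member promoters with CACGTG was 30.6% (6.86% of all genes) and with TCACGTGA 13.9% (0.907%). Members with M above 0, an alternative added after seeing the data, numbered between 22 of 39 (without disomic array 3) and 36 of 39 (without disomic array 1), while 52.0% to 54.3% of all expressed genes were above 0. With 3 arrays per genotype, 16 members had intervals reaching past 1.5-fold.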

Other observations

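Autophagy genes, whose products deliver cargo to the lysosome, were not among the members. Of 25 listed, 24 were expressed, 18 had M above 0 and the median M was 0.09, with 0 past a moderated t of 4 in either direction, where 1.13% and 0.693% of expressed genes were. Rb1cc1, a scaffold of the kinase complex that starts autophagosomes, had the largest moderated t of the list. Its log2 intensities were 7.36, 7.65 and 7.42 on disomic arrays 1 to 3 and 7.82, 7.84 and 7.71 on Ts1Cje arrays 1 to 3, with no overlap, and M was 0.31 (SE 0.09). Pik3c3, the lipid kinase that acts at the next step and was named after its values were seen, had 8.01, 8.22 and 7.81 against 7.71, 7.76 and 7.43. All Ts1Cje arrays were below all disomic arrays, and M was -0.38 (SE 0.15). Neither passed the adjusted p in limma.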
